A study of Gallus gallus with 4 samples.

Results

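The 10 genes described here (ADIPOQ, FABP4, LPL, CD36, PPARG, PNPLA2, CIDEA, FASN, SCD and GPAM) belong to the making, uptake, storage and release of fat, and were taken by name from a table of 15386 genes measured in the feather dermal papilla of the chicken. All 10 were found under their own symbols. The dermal papilla is the mesenchymal core at the base of a feather follicle. Tissue from its anterior side (2 libraries) and from its posterior side (2 libraries) was sequenced, and the design asks which genes differ between the sides. All 4 libraries came from untreated White Leghorn chickens, from the papilla complex of growing dorsal feathers. The age and sex of the birds, and whether each library came from a different bird, are not given in the sources used here, so a p-value covers no more than the spread among these 4 libraries, which may be technical.

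Adipocytes take up fatty acids that lipoprotein lipase releases from blood lipoproteins, store them as triglyceride in droplets, and secrete hormones such as adiponectin. Cells can also make fatty acids from citrate and join them to glycerol. In birds this route is not limited to fat: keratinocytes of the avian epidermis make and hold lipid, and the epidermis of the follicle adjoins the papilla.

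Values are RPKM, reads scaled to gene length and to the mapped reads of the library, as the authors deposited them. RPKM keeps no read totals, so the depth is unknown. The steps between low values put anterior library 2, posterior library 1 and posterior library 2 at 99.9%, 77.1% and 99.6% of the depth of anterior library 1. Posterior library 1 stood apart from the others in its smooth muscle genes. The summed level of 6 smooth muscle markers was 154 and 128 RPKM in the anterior libraries, against 3704 RPKM in posterior library 1 and 70.0 RPKM in posterior library 2. Differences between the sides are therefore also given without posterior library 1 for the 10 genes, the 9 lipid gene lists and the papilla markers. The papilla label was checked against 10 papilla markers, whose summed level was 180 and 223 RPKM on the anterior side, against 92.5 and 205 RPKM on the posterior side. ALPL, the alkaline phosphatase gene, measured 37.2 and 33.7 RPKM on the anterior side, against 3.46 and 19.3 RPKM on the posterior side. VCAN, the most abundant of the 10, measured 38.6 and 43.8 RPKM on the anterior side, against 40.9 and 74.7 RPKM on the posterior side. SOX18 measured 23.1 and 54.5 RPKM on the anterior side, against 14.9 and 44.6 RPKM on the posterior side. LEF1, listed as LEF-1, measured 40.5 and 47.9 RPKM on the anterior side, against 10.8 and 36.2 RPKM on the posterior side. Of 9 papilla markers tested, 7 had the higher mean log2(RPKM + 1) on the anterior side and 2 on the posterior side. Of all 10939 genes tested, 7065 had the higher mean on the anterior side. Of the 9 papilla markers, 7 were lowest in posterior library 1, where 54.5% of all genes were. Their median difference in log2(RPKM + 1), anterior minus posterior, was 0.65, and 0.27 without that library. Over all genes tested the medians were 0.11 and 0.023. SOX2, a transcription factor of mouse papillae, reached at most 0.163 RPKM. The summed level of 9 epidermal markers was above that of the papilla markers in every library. It was 4250 and 1555 RPKM on the anterior side, against 2086 and 1769 RPKM on the posterior side, so the tissue was not papilla mesenchyme alone.

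ADIPOQ was the most abundant of the 10 genes, and its lowest library lay above the highest library of each of the others. ADIPOQ encodes adiponectin. It measured 73.3 and 56.2 RPKM on the anterior side (library 1, then library 2), against 129 and 70.1 RPKM on the posterior side. Its mean over the 4 libraries exceeded that of 96.5% of the genes in the table. Next by mean level came CD36 (20.9 RPKM), FASN (18.8), LPL (17.4), SCD (15.3) and FABP4 (13.2), whose ranges over libraries overlap, so that their order is not resolved. PNPLA2 (5.40 RPKM), GPAM (3.91), PPARG (2.91) and CIDEA (2.39) were lower, and the ranges of neighbours in that order also overlap. All 10 passed the filter used for testing, at least 1 RPKM in at least 2 libraries.

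The name adipocyte was checked against other genes of that cell and of triglyceride synthesis. PLIN1, the perilipin that coats the adipocyte droplet, measured 0.412 and 0.509 RPKM on the anterior side, against 0.410 and 0.386 RPKM on the posterior side. CIDEC, which enlarges adipocyte droplets, reached at most 0.0887 RPKM. DGAT2, an enzyme of the last step of triglyceride synthesis, measured 0.393 and 0.352 RPKM on the anterior side, against 0.376 and 0.685 RPKM on the posterior side. Of 11 adipocyte genes found in the table, 3 (PLIN1, CIDEC and the retinol carrier gene RBP4) were under 1 RPKM in every library. The 8 that were tested, 6 of them among the 10 genes, had a median log2 difference (anterior minus posterior) of -0.42, and of 0.096 without posterior library 1. The other 2 tested genes of that list, RBP7 and CFD, were not as low as PLIN1 and CIDEC. RBP7 averaged 2.51 RPKM over the 4 libraries, with posterior library 1 at 6.91-fold the mean of the others. It was under 1 RPKM in library 2 of each side. CFD averaged 9.62 RPKM, and its lowest library was at 7.19 RPKM. With PLIN1, CIDEC and DGAT2 low but CFD and in part RBP7 higher, these genes do not settle the name adipocyte. The 10 genes are therefore called lipid genes below. Leptin (LEP), hormone-sensitive lipase (LIPE) and DGAT1 were looked for but not matched by name, so their levels are not known here.

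**Figure D1:**
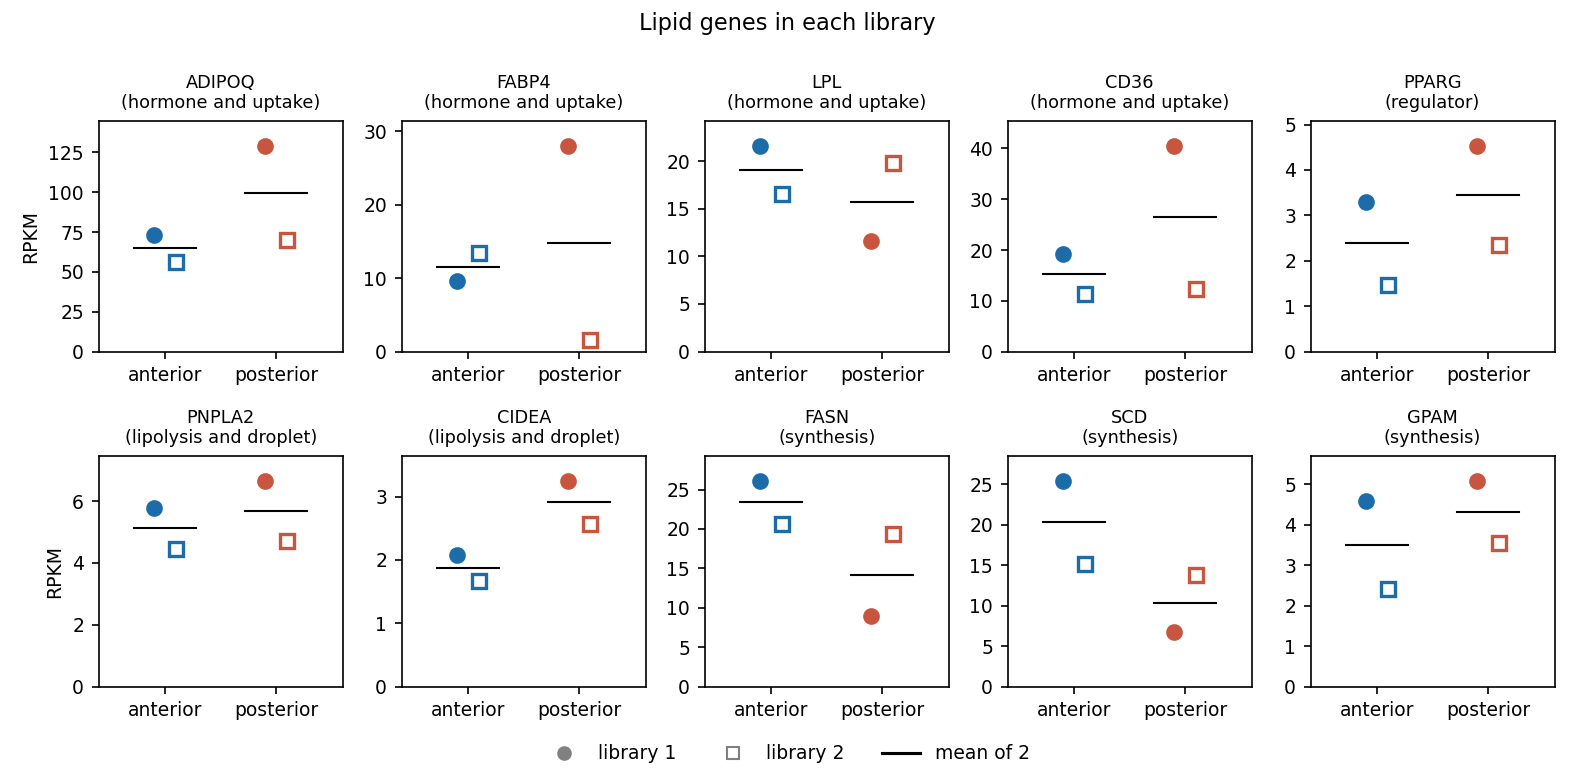
RPKM of the 10 genes in each library, each panel with its own vertical axis from 0. Anterior libraries stand left of posterior libraries, filled circles are library 1, open squares library 2, and the black line is the mean of 2 libraries. Posterior library 1 is the highest library for 7 genes and the lowest for LPL, FASN and SCD.

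Among the hormone and uptake genes, values split mainly between the 2 posterior libraries. CD36, a fatty acid transporter at the cell surface, measured 19.2 and 11.3 RPKM in the anterior libraries, against 40.6 and 12.4 RPKM in posterior libraries 1 and 2. Only posterior library 1 was high, and posterior library 2 lay within the anterior range. FABP4, which carries fatty acids inside the cell, measured 9.65 and 13.4 RPKM on the anterior side, against 28.1 and 1.52 RPKM on the posterior side. It was the most variable of the 10 genes: its posterior libraries were 18.5-fold apart and enclosed both anterior values. LPL, the secreted lipase that frees fatty acids from lipoproteins, measured 21.6 and 16.6 RPKM on the anterior side, against 11.7 and 19.9 RPKM on the posterior side. Here posterior library 1 was the lowest, the opposite of its place for ADIPOQ, FABP4 and CD36.

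The synthesis genes FASN and SCD were higher in both anterior libraries than in either posterior library. FASN, the fatty acid synthase, measured 26.1 and 20.7 RPKM on the anterior side, against 8.97 and 19.4 RPKM on the posterior side, with means of 23.4 ± 3.85 and 14.2 ± 7.36 RPKM (SD, n = 2 each). SCD, the desaturase that makes monounsaturated fatty acids, measured 25.4 and 15.2 RPKM on the anterior side, against 6.73 and 13.8 RPKM on the posterior side, with means of 20.3 ± 7.27 and 10.3 ± 5.01 RPKM (n = 2 each). For both genes posterior library 2 lay close under the lower anterior library, and posterior library 1 was well below. GPAM, which attaches the first fatty acid to glycerol phosphate, did not share this pattern. It measured 4.59 and 2.41 RPKM on the anterior side, against 5.09 and 3.54 RPKM on the posterior side, and the sides overlapped.

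The regulator, the lipase and the droplet gene were low among the 10 genes. Their means over the 4 libraries exceeded those of 41.2% (PPARG), 53.4% (PNPLA2) and 38.4% (CIDEA) of the genes in the table. PPARG, the nuclear receptor that drives adipocyte differentiation, measured 3.30 and 1.47 RPKM on the anterior side, against 4.54 and 2.35 RPKM on the posterior side. PNPLA2, the lipase that starts triglyceride breakdown, measured 5.78 and 4.45 RPKM on the anterior side, against 6.66 and 4.70 RPKM on the posterior side. The ratio of its highest to its lowest library was the smallest of the 10. CIDEA, a droplet protein known in mice from brown fat, measured 2.07 and 1.67 RPKM on the anterior side, against 3.25 and 2.57 RPKM on the posterior side. CIDEA was the only one of the 10 with both posterior libraries above both anterior libraries, by means of 1.87 ± 0.286 RPKM on the anterior side, against 2.91 ± 0.483 RPKM on the posterior side (SD, n = 2 each).

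The sides were compared for all genes on the scale of log2(RPKM + 1) with limma, as anterior minus posterior. A fold change on this scale understates that of low genes. Of 10939 genes tested, 0 had a Benjamini-Hochberg adjusted p under 0.05 (0% of genes), and 0 of the 10 lipid genes did. Before adjustment, 103 genes (0.942%) were under 0.05, and again 0 of the 10. The adjusted limma p of the 10 genes ran from 0.964 to 0.969. With 2 libraries against 2, an exact permutation test of a single gene cannot give a two-sided p below 0.333. Such p-values are no evidence of equal levels.

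The largest differences relative to their error were those of SCD, in limma at 0.95 with a standard error of 0.42 (adjusted p = 0.964), and FASN, at 0.77 with a standard error of 0.40 (adjusted p = 0.964). CIDEA followed at -0.44 with a standard error of 0.27 and ADIPOQ at -0.56 with a standard error of 0.37. CD36 differed by -0.58, PPARG by -0.40, GPAM by -0.27, PNPLA2 by -0.12 and LPL by 0.30, with standard errors from 0.29 to 0.58. FABP4 differed by 0.53 with a standard error of 1.09, and its sign depends on the scale, since its mean in RPKM was 11.5 in anterior and 14.8 in posterior tissue. The median difference over the 10 genes was -0.19, where the median over all genes tested was 0.11. Scaling the libraries by their median ratio moved the median of all genes to -0.0057 and turned the direction of none of the 10.

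Libraries of the sides did not overlap for 3 of the 10 genes, with FASN and SCD higher in anterior and CIDEA higher in posterior tissue. Over all genes tested this held for 26.2%, made up of 18.9% with anterior higher and 7.25% with posterior higher, so the count of 3 is near the background. None of the 10 was also at least 2-fold apart, as 0.832% of all genes were.

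**Figure D2:**
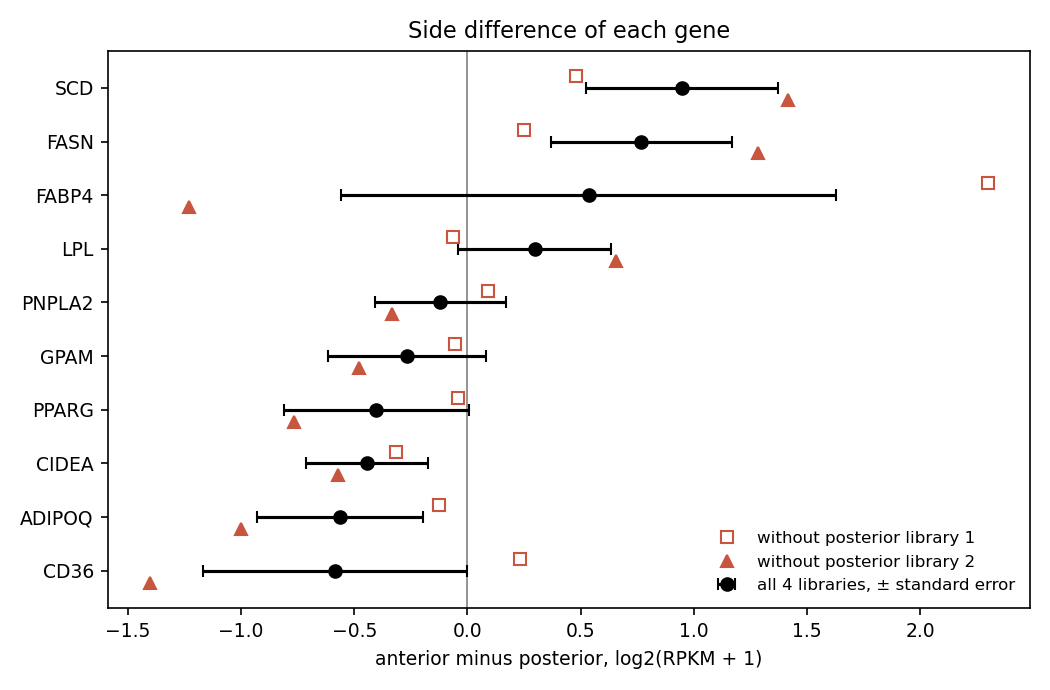
Difference between the sides for each of the 10 genes, anterior minus posterior in log2(RPKM + 1). Black circles are all 4 libraries with the standard error from limma, open squares leave out posterior library 1 and triangles leave out posterior library 2. SCD, FASN, PPARG, CIDEA, ADIPOQ and GPAM keep their sign in all 3 versions, while FABP4, LPL, PNPLA2 and CD36 do not.

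Leaving out posterior library 1 brought 9 of the 10 differences nearer to 0, all but that of FABP4. The median over all genes tested also moved nearer to 0, from 0.11 to 0.023. Without that library, SCD differed by 0.48, FASN by 0.25, CIDEA by -0.32 and ADIPOQ by -0.13. CD36 turned to 0.23, PNPLA2 to 0.092 and LPL to -0.063, and PPARG (-0.040) and GPAM (-0.057) were near 0. FABP4 stood at 2.30 without posterior library 1 and at -1.23 without posterior library 2. Posterior library 1 was the highest library for 7 of the 10 genes, against 26.5% of all genes tested, and the lowest for the other 3, against 54.5% of all genes. It was at either end for 81% of all genes tested, so a place at the end of the range is common for that library. The 6 smooth muscle markers were also highest in posterior library 1, and their part in these values was not tested. In bulk tissue, fewer cells of a type and less RNA per cell cannot be told apart.

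As group means, the hormone and uptake genes lay above the synthesis genes in every library, and by far the most in posterior library 1. This does not hold gene by gene: ADIPOQ is the highest of all 10 genes and GPAM is low, and in anterior library 1 both FASN and SCD exceeded LPL, CD36 and FABP4. The mean log2(RPKM + 1) of ADIPOQ, FABP4, LPL and CD36 minus that of FASN, SCD and GPAM was 0.63 and 0.95 in anterior libraries 1 and 2, against 2.27 and 0.43 in posterior libraries 1 and 2. The posterior libraries enclosed the anterior ones. The sides averaged 0.79 in anterior and 1.35 in posterior tissue, a difference of -0.56, which was 0.36 without posterior library 1 and -1.48 without posterior library 2. In RPKM, the 4 hormone and uptake genes summed to 124 and 97.5 in the anterior libraries and to 210 and 104 in the posterior libraries. The 3 synthesis genes summed to 56.2 and 38.3 RPKM on the anterior side, against 20.8 and 36.7 RPKM on the posterior side.

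**Figure D3:**
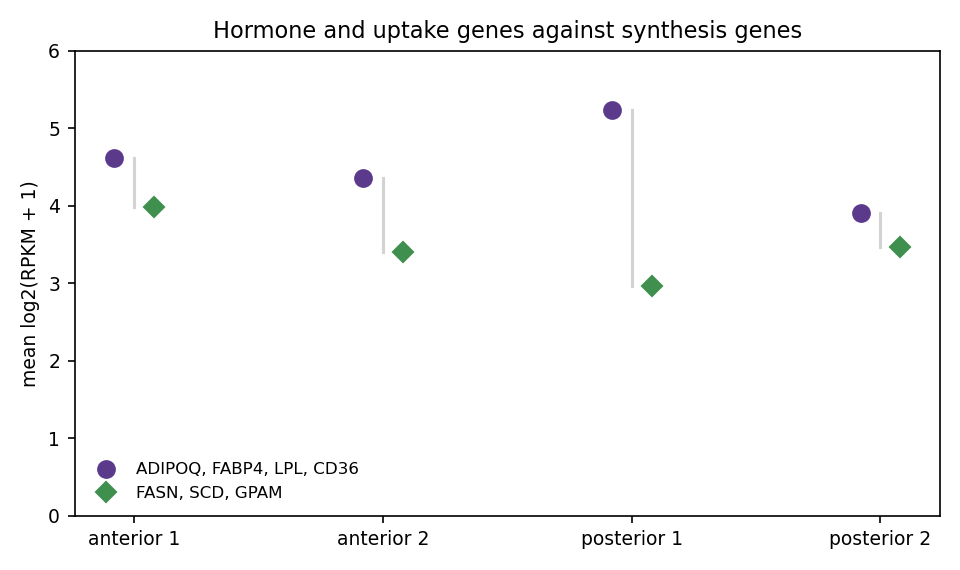
Mean log2(RPKM + 1) per library of the hormone and uptake genes (circles) and of the synthesis genes (diamonds), with a grey line for the gap between them. The gap is 2.27 in posterior library 1 and between 0.43 and 0.95 in the other 3 libraries.

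Other genes of fatty acid synthesis and of cholesterol synthesis were mostly, like FASN and SCD, lowest in posterior library 1, as most genes tested were. Of 12 other tested genes for fatty acid synthesis and desaturation, 9 were lowest in that library, where 54.5% of all genes were. Of the 12, 10 had a positive difference, where 7065 of all 10939 genes did. ACLY, listed as ACL, makes the acetyl-CoA for this route and measured 65.4 and 37.9 RPKM on the anterior side, against 20.9 and 40.7 RPKM on the posterior side. The elongase gene ELOVL7 ran the other way, at 54.2 and 25.8 RPKM on the anterior side, against 104 and 28.4 RPKM on the posterior side. ELOVL5 measured 35.5 and 36.6 RPKM on the anterior side, against 45.9 and 40.2 RPKM on the posterior side, and ELOVL1 measured 29.9 and 35.2 RPKM on the anterior side, against 23.0 and 29.3 RPKM on the posterior side. The median difference of the 12 was 0.26, and -0.0025 without posterior library 1, where the median of all genes tested was 0.11 and 0.023. With FASN and SCD included it was 0.29 and 0.088. SREBF1, the factor that induces this pathway in mammals, was named after its values were seen. It is listed as SREBP-1 and measured 13.1 and 12.1 RPKM on the anterior side, against 4.93 and 10.8 RPKM on the posterior side.

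Cholesterol synthesis genes had the highest median of the 9 lipid lists toward the anterior side, and 14 of 18 had both anterior libraries above both posterior libraries, where 18.9% of all genes did. Of the 18, 13 were lowest in posterior library 1, where 54.5% of all genes were. The median log2 difference was 0.64, and 0.49 without posterior library 1, with 17 of 18 then positive, where 6099 of all 10939 genes were. The adipocyte list lay farther from 0 in the posterior direction without anterior library 1, at -0.65 against 0.51 for the cholesterol list, and without posterior library 2, at -0.88 against 0.82. FDPS, which makes farnesyl diphosphate, measured 88.5 and 63.7 RPKM on the anterior side, against 21.0 and 53.9 RPKM on the posterior side. CYP51A1, a sterol demethylase, measured 75.6 and 47.3 RPKM on the anterior side, against 48.7 and 37.1 RPKM on the posterior side. MSMO1, a sterol oxidase, measured 175 and 81.6 RPKM on the anterior side, against 213 and 83.8 RPKM on the posterior side. HMGCS1, an early enzyme of the pathway, measured 85.5 and 32.6 RPKM on the anterior side, against 88.0 and 26.5 RPKM on the posterior side. Both were high in library 1 of each side. INSIG2, which holds the sterol sensor in place, measured 34.2 and 34.6 RPKM on the anterior side, against 33.3 and 43.9 RPKM on the posterior side. No gene of either list passed limma's threshold. The summed level of 9 epidermal markers, led by KRT6A, KRT14 and KRT5, was 4250 and 1555 RPKM on the anterior side, against 2086 and 1769 RPKM on the posterior side, and its part in these differences was not tested.

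Genes of the droplet and of lipolysis were, like ADIPOQ, CD36 and PPARG, mostly highest in posterior library 1. Of 7 tested droplet genes, 6 were, and 5 of 6 with CIDEA left out, where 26.5% of all genes tested were. The median difference of the 7 was -0.44, or -0.023 without that library. PLIN2, the droplet coat found in most cell types, measured 70.1 and 49.4 RPKM on the anterior side, against 96.2 and 71.2 RPKM on the posterior side, far above PLIN1. Genes of caveolae, membrane pits of fat cells and also of smooth muscle, were among them. CAV1 measured 50.3 and 35.8 RPKM on the anterior side, against 129 and 36.0 RPKM on the posterior side, and PTRF measured 57.3 and 54.1 RPKM on the anterior side, against 105 and 57.4 RPKM on the posterior side. The difference was smaller for CAV2, at 24.5 and 16.9 RPKM on the anterior side, against 27.9 and 17.9 RPKM on the posterior side. PLIN3, another widespread coat, was lowest in posterior library 1, at 20.4 and 23.4 RPKM on the anterior side, against 10.3 and 22.2 RPKM on the posterior side. Of 6 lipolysis genes tested, 5 were highest in posterior library 1, and 4 of 5 with PNPLA2 left out. For G0S2, anterior library 1 was nearly as high. Beside PNPLA2, its activator ABHD5 measured 8.48 and 4.96 RPKM on the anterior side, against 10.7 and 5.96 RPKM on the posterior side. Its inhibitor G0S2 measured 39.0 and 18.9 RPKM on the anterior side, against 39.6 and 15.3 RPKM on the posterior side. The lysosomal lipase gene LIPA differed little, at 32.9 and 32.9 RPKM on the anterior side, against 35.3 and 30.4 RPKM on the posterior side. PDE3B, a phosphodiesterase that damps lipolysis, measured 3.71 and 3.90 RPKM on the anterior side, against 3.06 and 2.86 RPKM on the posterior side. The median difference of the lipolysis genes was -0.057, and 0.11 without posterior library 1. The 10 tested glycerolipid genes, GPAM included, had a median of -0.056, and of -0.037 without that library, with 4 highest and 4 lowest in posterior library 1, and AGPAT3 was the most abundant at 13.8 and 14.1 RPKM on the anterior side, against 9.80 and 19.2 RPKM on the posterior side.

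Uptake, binding and activation genes, LPL, CD36 and FABP4 included, had a median of 0.23 over 15 tested members. It was also 0.23 without posterior library 1, but -0.053 without posterior library 2 and 0.091 after median ratio scaling. With LPL, CD36 and FABP4 left out the median was 0.11, and 0.20 without posterior library 1. FABP5, the fatty acid carrier of epidermis, was by far the most abundant. It measured 369 and 669 RPKM on the anterior side, against 347 and 411 RPKM on the posterior side. FABP7, a carrier best known from the nervous system, measured 19.2 and 33.1 RPKM on the anterior side, against 9.15 and 27.9 RPKM on the posterior side. Adipogenic transcription factors had a median of 0.11 over 13 tested members, and of 0.019 without posterior library 1. CEBPB, which acts early in fat cell differentiation, measured 62.9 and 50.3 RPKM on the anterior side, against 52.3 and 71.7 RPKM on the posterior side, and NR1H3, a sterol-sensing receptor listed as LXR, 24.3 and 22.7 RPKM on the anterior side, against 21.2 and 22.3 RPKM on the posterior side. Fatty acid oxidation genes had a median of 0.11 over 13 tested members, and of -0.029 without posterior library 1, with HADH, a dehydrogenase of the pathway, at 92.5 and 88.3 RPKM on the anterior side, against 104 and 96.6 RPKM on the posterior side. No gene of these lists passed limma's threshold.

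**Figure D4:**
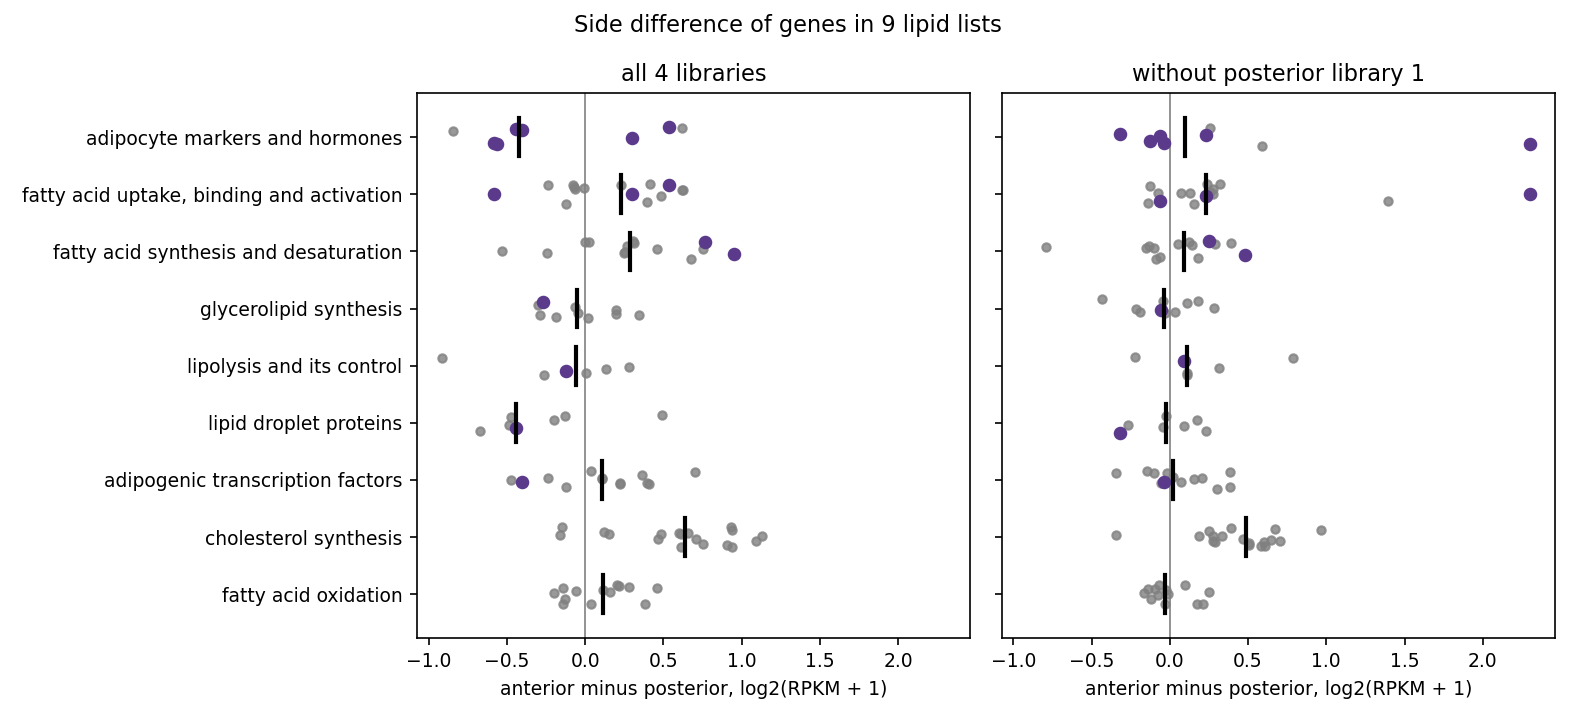
Difference between the sides, anterior minus posterior in log2(RPKM + 1), for the tested genes of 9 lipid lists, with all 4 libraries (left) and without posterior library 1 (right). Purple points are the 10 genes, grey points other genes, black bars the list medians, and a gene of several lists is drawn in each. The cholesterol synthesis list has the median farthest from 0 in both panels, 0.64 and 0.49.

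CD36, FABP4 and LPL are also made by endothelial cells or macrophages. The summed level of 8 endothelial markers was 147 and 147 RPKM on the anterior side, against 185 and 155 RPKM on the posterior side. The 8 did not move together: 4 were highest and 3 lowest in posterior library 1, where 26.5% and 54.5% of all genes tested were. PECAM1, an endothelial adhesion gene, measured 39.2 and 33.5 RPKM on the anterior side, against 70.1 and 40.5 RPKM on the posterior side. TIE1, an endothelial receptor named after its values were seen, measured 8.11 and 8.35 RPKM on the anterior side, against 3.47 and 7.09 RPKM on the posterior side. The summed level of 8 macrophage markers was 344 and 402 RPKM on the anterior side, against 365 and 369 RPKM on the posterior side. Most of that sum was CD74, listed as II, at 254 and 314 RPKM on the anterior side, against 290 and 280 RPKM on the posterior side. Of the 8 macrophage markers, 4 were lowest and 2 highest in posterior library 1, near the shares of 54.5% and 26.5% of all genes tested. None of the markers found for either cell type was at 0 in any library. Their part in the lipid genes was not tested.

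Within the sides, 6 of the 10 genes (ADIPOQ, CD36, PPARG, PNPLA2, CIDEA and GPAM) were higher in library 1 than in library 2 on both the anterior and the posterior side, where 26.7% of all genes tested were. None of the 10 was lower in library 1 on both sides, where 37.2% of all genes were. In log2(RPKM + 1) the gap was 0.71 on the anterior and 1.63 on the posterior side for CD36, 0.80 and 0.73 for PPARG and 0.38 and 0.87 for ADIPOQ. FASN, SCD and LPL were higher in library 1 on the anterior side and lower in library 1 on the posterior side, by 0.32 and -1.03 for FASN, 0.71 and -0.94 for SCD and 0.36 and -0.72 for LPL. FABP4 did the reverse, at -0.44 and 3.53. The labels number the libraries 1 and 2 on each side, but do not say whether equal numbers belong together. For CD36, PPARG, PNPLA2, GPAM and LPL the gaps within both sides exceeded in size the difference between the sides. That difference was -0.58, -0.40, -0.12, -0.27 and 0.30.

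**Figure D5:**
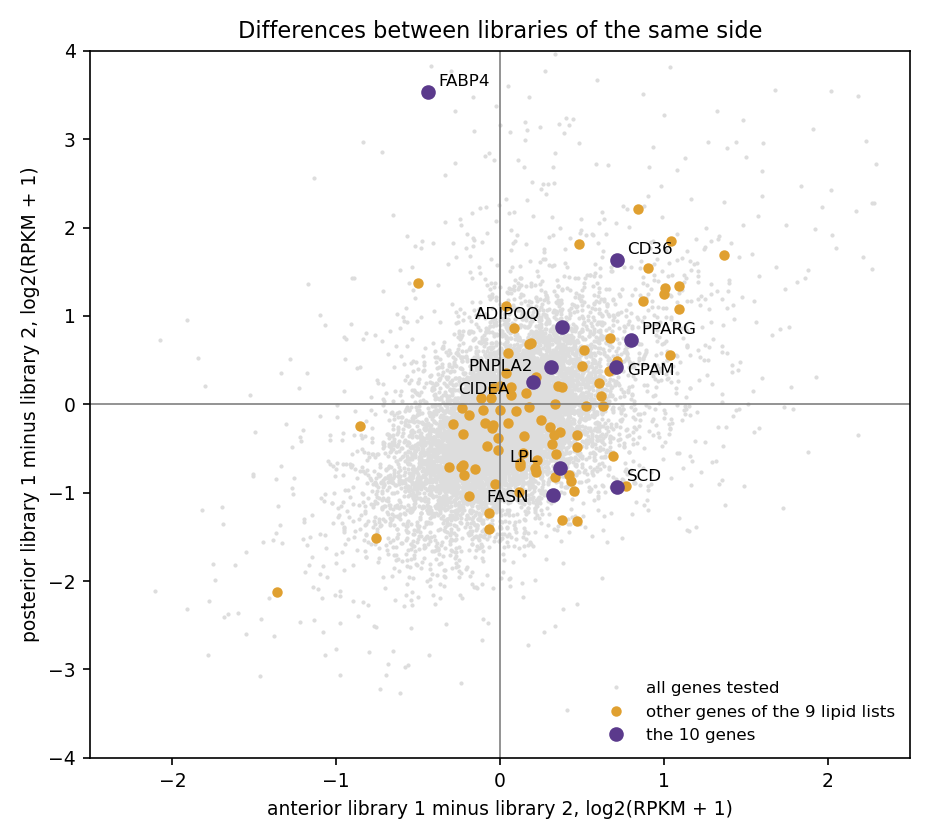
Library 1 minus library 2 in log2(RPKM + 1), on the anterior side (horizontal) and the posterior side (vertical). Purple points are the 10 genes, orange points other tested genes of the 9 lipid lists, and grey points all 10939 genes tested, of which 45 lie outside the axes. ADIPOQ, CD36, PPARG, PNPLA2, CIDEA and GPAM lie above 0 on both axes.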

How the data were processed

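Per the labels' protocols, RNA of the dissected tissue was taken up in Trizol and made into TruSeq libraries. The authors deposited RPKM values per gene and library, under gene names of Ensembl release 78 by the table's name. TopHat2, Partek and the build galGal4 are named in the submitters' processing notes, but the counting of reads is not described there. The values are not counts, so no count model was used.

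Genes that reached 1 RPKM in 2 or more libraries were tested as log2(RPKM + 1) with limma 3.58.1 in R 4.3.3 (eBayes with trend, two-sided, Benjamini-Hochberg over all 10939 genes, 2 residual degrees of freedom, no covariates). The fit was tested on simulated data, drawn independently and with the same spread of a gene in every library. Posterior library 1 was at either end for 81% of all genes tested, a case the simulation does not cover. Plots used Python 3.11.15 and matplotlib 3.10.9. The members and the 14 gene lists were chosen with earlier results of these data known. Of 191 list genes, 154 were found, 7 of them by a synonym unique to 1 gene in an NCBI RefSeq table (bGalGal1.mat.broiler.GRCg7b), used for names only. All members are named. Up to 5 genes of a lipid list and 4 of a cell type list were named by mean level, and any others for their role, after their values were seen. Alternatives were median ratio scaling, a pseudocount of 0.1, a filter of 5 RPKM, no filter, no trend, a replicate block and leaving out each library, where the lone library of a side is assumed to vary like the other side.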

Additional observations from a re-analysis of the deposited data

How the results depend on the processing

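Of the 10 genes, 0 passed limma's threshold under any of the 10 alternatives. Over all genes, 2 passed with a replicate block, and 0 to 226 with a library left out, 226 of them without posterior library 2. The median difference of the 10 genes (-0.19) was -0.32 after median ratio scaling, 0.30 at a filter of 5 RPKM, which removes PPARG, CIDEA and GPAM, and -0.53 to 0.061 with a library left out. The difference of hormone and uptake against synthesis genes (-0.56) was -0.94 at the filter of 5 RPKM, which removes GPAM, and ran from -1.48 to 0.36 with a library left out. The count of genes at least 2-fold apart without overlap was 1 (SCD) at a pseudocount of 0.1. Over all 10939 genes tested, 168 with anterior higher and 42 with posterior higher were so there. With a library left out the count was 0 to 4, and separation is easier where a side holds 1 library. It held SCD without anterior library 2, where 143 of all genes with anterior higher and 59 with posterior higher were so. Without posterior library 1 it held FABP4, where 64 and 42 of all genes were so. Without posterior library 2 it held CD36, FABP4, FASN and SCD, where 1003 and 388 of all genes were so. After median ratio scaling the medians of the droplet (-0.55) and adipocyte (-0.53) lists lay farther from 0 than that of the cholesterol list (0.50). Directions of the 10 genes turned only with a library left out, where differences ran from -0.33 to 0.092 for PNPLA2, -0.62 to 0.086 for GPAM, -0.063 to 0.66 for LPL, -1.40 to 0.23 for CD36 and -1.23 to 2.30 for FABP4. PNPLA2 and GPAM turned to 0.036 and 0.086 without anterior library 2. The cause was not tested. The replicate block pairs libraries by their number within a side, and no label says whether equal numbers belong together. With the block, 617 genes had an unadjusted limma p under 0.05, where 103 did without it. The differences between libraries 1 and 2 correlated between the sides over genes (Pearson's r = 0.488), genes not being independent replicates. The block leaves 1 residual degree of freedom. RPKM gives no read totals, so how far depth limits the low genes is unknown.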

Other observations

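Some lipid genes outside the 10 had levels that are given here as measured, chosen with those levels in view. CFD, which encodes complement factor D, a protein that mammalian adipocytes secrete, measured 11.4 and 12.3 RPKM on the anterior side, against 7.19 and 7.55 RPKM on the posterior side. The log2 difference of CFD in limma was 0.62 with a standard error of 0.24 (adjusted p = 0.964), and 0.59 without posterior library 1. Both anterior libraries lay above both posterior libraries, as held for 18.9% of all genes tested. MGLL, which completes triglyceride breakdown, measured 1.27 and 2.21 RPKM on the anterior side, against 7.20 and 2.16 RPKM on the posterior side, with only posterior library 1 high. The transcription factor KLF15, at 3.33 and 1.17 RPKM on the anterior side, against 5.56 and 1.75 RPKM on the posterior side, and the nuclear receptor PPARA, listed as PPAR, at 6.53 and 2.53 RPKM on the anterior side, against 7.81 and 3.18 RPKM on the posterior side, were high in library 1 of each side. THRSP, a gene induced with fat synthesis in liver, did the reverse, at 2.36 and 7.60 RPKM on the anterior side, against 1.14 and 8.32 RPKM on the posterior side.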
